A study of Mus musculus with 6 samples.

Results

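The Hox genes encode homeodomain transcription factors that lie side by side in 4 clusters, Hoxa, Hoxb, Hoxc and Hoxd. The members described here are the genes whose symbol is Hox, a cluster letter and a number, each read through a probe set that the array's annotation pairs with that gene alone. Of 39 such mouse genes in RefSeq's gene table, 37 were measured, out of 19937 genes measured in all. Each of the 37 had a single probe set, so no choice between probe sets was needed. The other 2 are not described here. By cluster, 10 members belong to Hoxa, 9 to Hoxb, 9 to Hoxc and 9 to Hoxd.

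The arrays hold RNA of proliferating neural stem and progenitor cell cultures from 129SV mice aged 8 weeks. The Sirt1 inactive cultures (3 samples) came from NestinCre;Sirt1lox/lox mice, and the control cultures (3 samples) from Sirt1lox/lox mice. All 6 cultures therefore had floxed Sirt1 alleles, and the Sirt1 inactive ones alone also had Cre, driven by the promoter of Nestin, a gene of neural stem and progenitor cells. No control with Cre alone is among the samples, so the presence of Cre and the loss of SIRT1 cannot be told apart. Cells grew as neurospheres with EGF and bFGF, were replated on coated plastic and were collected at passage 2. The titles call the samples biological replicates, but the labels do not say how many mice went into each.

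Along the body axis, genes at the 3′ end of a cluster (low numbers) are active in the hindbrain and neck, and genes at the 5′ end (high numbers) in the lumbar, sacral and tail regions, in the limbs and in the urogenital tract. Genes with the same number in different clusters are paralogues, which gives 13 paralogue groups. The forebrain, where adult neural stem cells line the lateral ventricle, forms in front of the Hox domains, and Hox genes are kept silent there by Polycomb complexes. Hox proteins bind DNA together with cofactors of the TALE class, and retinoic acid is a classic inducer of the 3′ genes.

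Each array gave a log2 value per probe set, made with RMA, which corrects background, equalises the arrays and summarises the probes. Array medians lay between 7.36 and 7.39, lower quartiles between 5.78 and 5.83 and upper quartiles between 9.11 and 9.17. Sirt1 read 8.26, 8.33 and 8.25 in the Sirt1 inactive cultures, against 8.73, 8.78 and 8.55 in control. Its difference was -0.41 (SE 0.08), which over all 22961 probe sets tested had an adjusted p of 0.959 in limma. Of 14 measured neural stem cell markers, 13 lay above the median of every array. So did 13 of 13 oligodendrocyte lineage markers and 12 of 13 astrocyte markers, so this does not single out stem cells. Arrays have no read depth, and their number limits the precision. Control replicate 3 stood apart from the other arrays for the Hox genes. Medians and counts are also given without it for many of the gene sets, though not for all.

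The Hox genes were dim in both genotypes. Of the 37 members, 33 lay below the array median on all 6 arrays, 5 of them also below the lower quartile, and none reached the upper quartile on any array. Hoxa4, Hoxb1 and Hoxb3 stayed above the median on all 6 arrays, and Hoxb9 straddled it. Mean log2 levels over the 6 arrays ran between 5.07 for Hoxa5 and 8.07 for Hoxa4, with a median of 6.51. A list of 39 measured markers of tissues that such cultures do not hold, such as liver, testis, muscle and skin, covered a similar range, between 3.86 and 8.15 with a median of 6.53, and none of these markers reached the upper quartile either. The brightness of a probe set also depends on its probes, so these levels do not rank the Hox genes among themselves, and RMA values carry no call of presence or absence.

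**Figure D1:**
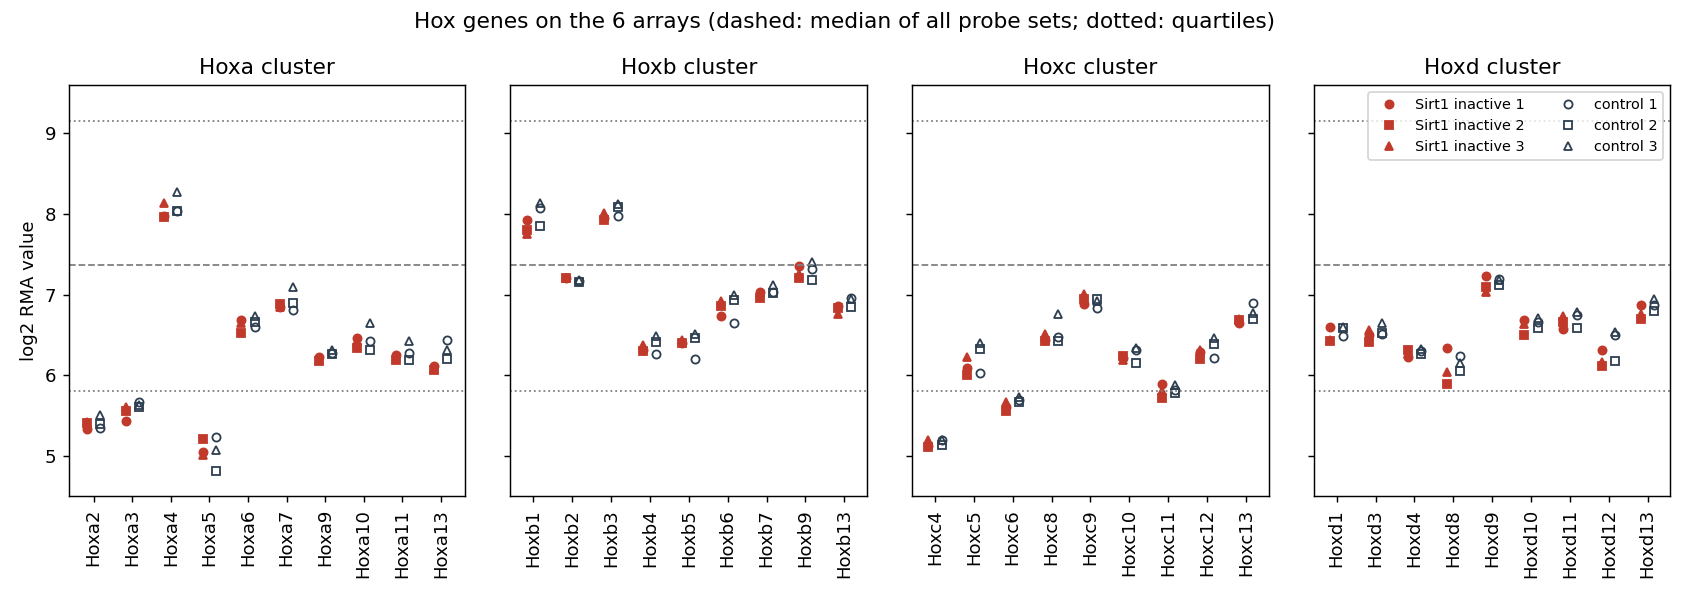
Log2 RMA value (vertical axis) of each of the 37 Hox genes (horizontal axis, one panel per cluster, paralogue number rising to the right) on the 3 Sirt1 inactive arrays (filled red, left) and the 3 control arrays (open, right); the symbol shape gives the replicate number, the dashed line the mean of the array medians and the dotted lines the mean quartiles of all probe sets. Hoxa4, Hoxb1 and Hoxb3 lie above the dashed line on all arrays, and 33 of 37 genes lie below it on all arrays.

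Between the genotypes the Hox genes differed by small amounts, and none passed the test. Over all probe sets 0 of 37 members passed (limma, adjusted p = 0.959 for the lowest), where 0% of the 22961 tested probe sets passed. The differences, Sirt1 inactive minus control, ran from -0.23 for Hoxa13 to 0.048 for Hoxa5 on the log2 scale. All 37 intervals of 95% lay within 0.5 to either side of 0. The lowest limit was -0.46 for Hoxd12, a level of 0.727 times control, and the highest was 0.32 for Hoxa5, or 1.25-fold. A change larger than that is outside the interval of each member, on the RMA scale, which compresses the changes of dim probe sets.

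At an unadjusted p under 0.05 there was 1 member, Hoxa13, which was lower, against 3.61% of all tested probe sets (0.984% higher and 2.63% lower). With the replicate number as a block there were 2, Hoxa13 and Hoxd12, both lower, against 7.58% of all probe sets (5.08% lower), and 0 passed in that fit. The count was 2 without control replicate 1 and 3 without control replicate 2, against 6.33% and 4.88% of all probe sets. The groups did not overlap for 4 members, against 9.33% of all probe sets. This count was 12 without Sirt1 inactive replicate 1, 10 without Sirt1 inactive replicate 3, 11 without control replicate 1 and 13 without control replicate 2, where 20.8%, 18.2%, 22.8% and 21.7% of all probe sets did not overlap, as fewer arrays overlap less often. Without Sirt1 inactive replicate 2 or control replicate 3 it was 4, against 15.6% and 15.7%.

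The sign of the differences leaned one way. Values below 0 were found for 33 of 37 members. The same held for 60.1% of the probe sets tested, and for 68.8% of those below the median brightness, where most Hox genes lie. In the 3 same-numbered pairs of cultures, 14 members were lower in every pair, as were 20.7% of all probe sets. The median difference was -0.063 for the members, -0.022 for all tested probe sets and -0.042 for the dimmer ones. Without control replicate 3, 26 of 37 members were below 0, against 53.7% of all probe sets, and the median was -0.021. The median was -0.095 without control replicate 2, -0.038 with array medians subtracted and -0.028 with array weights. Subtracting array medians left 31 of 37 members below 0, against 48.9% of all probe sets. For the dimmer probe sets alone, no share below 0 is given without control replicate 3 or with array medians subtracted.

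**Figure D2:**
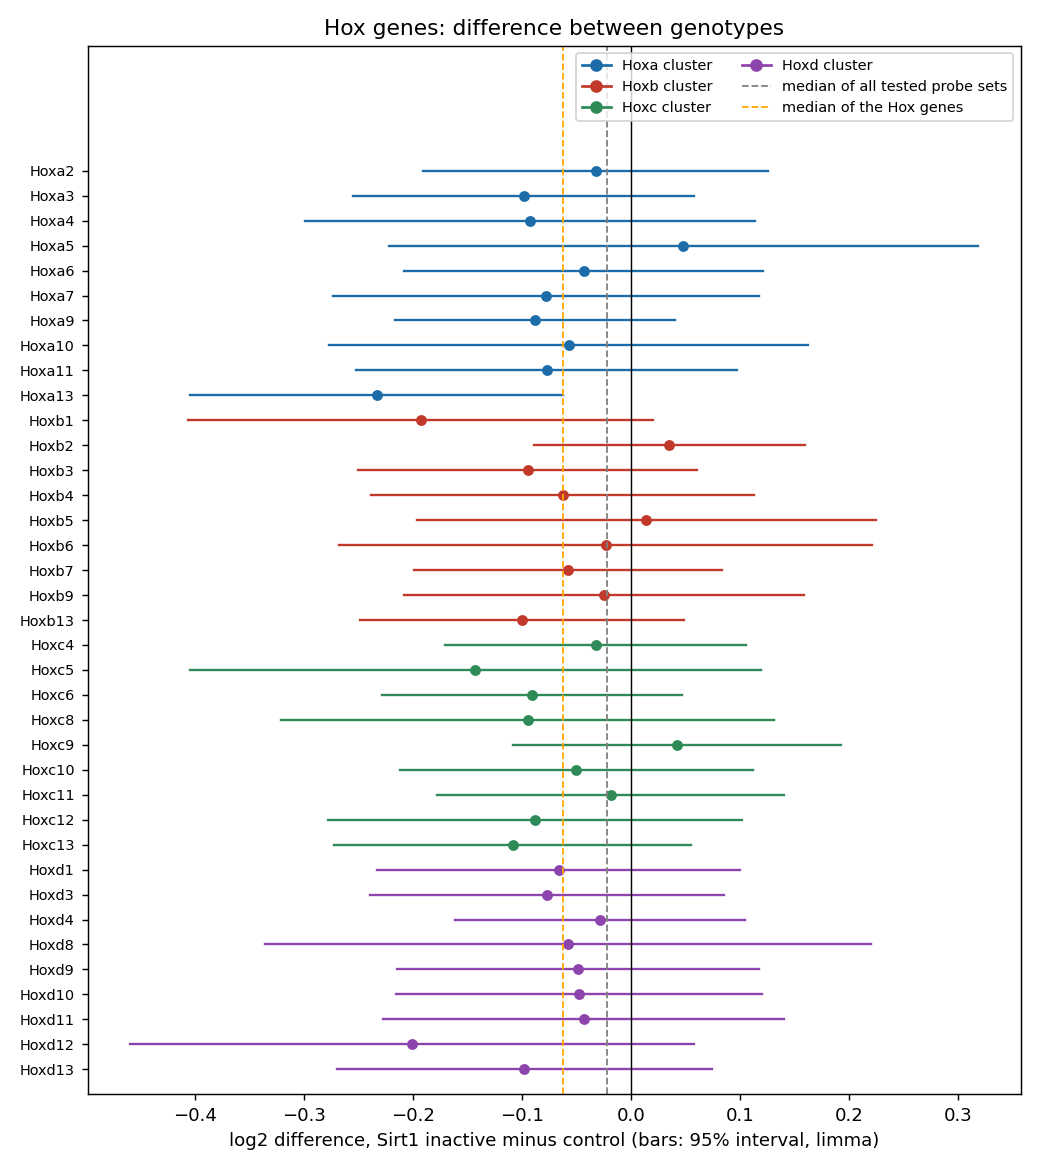
Log2 difference, Sirt1 inactive minus control (horizontal axis), of the 37 Hox genes (rows, coloured by cluster), with 95% intervals from limma over 3 arrays per genotype; dashed lines mark the median of the members (-0.063) and of all tested probe sets (-0.022). Only the interval of Hoxa13 leaves out 0, and no interval reaches 0.5 to either side.

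The 11 members of paralogue groups 1 to 4, which pattern the hindbrain and neck, had a median difference of -0.066, with 10 below 0. Without control replicate 3 the median was -0.022, with 9 below 0. Hoxb1, which gives the fourth rhombomere of the hindbrain its identity, read 7.92, 7.81 and 7.76 in the Sirt1 inactive cultures, against 8.08, 7.85 and 8.13 in control. Control replicate 2 lay inside the range of the Sirt1 inactive arrays, so the groups overlapped. The difference was -0.19 (SE 0.09) with an interval from -0.41 to 0.021, and its value lay between -0.28 and -0.12 over the alternative settings.

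Hoxb2, another hindbrain gene, read 7.20, 7.21 and 7.21 in the Sirt1 inactive cultures, against 7.17, 7.16 and 7.19 in control. Of the 37 members it was the only one whose Sirt1 inactive arrays were all above control, by a difference of 0.035 (SE 0.05) that did not pass; 2.62% of all tested probe sets had groups apart in that direction. Hoxb3 read 7.96, 7.92 and 8.02 in the Sirt1 inactive cultures, against 7.97, 8.08 and 8.13 in control, a difference of -0.095. Hoxa4, which patterns the neck vertebrae, read 7.98, 7.96 and 8.13 in the Sirt1 inactive cultures, against 8.04, 8.04 and 8.27 in control, a difference of -0.093. Both of these bright members overlapped between the genotypes and had their highest value in control replicate 3. Without that array the difference was -0.016 for Hoxa4 and -0.062 for Hoxb3. The other members of these groups were Hoxa2 (-0.032), Hoxa3 (-0.098), Hoxb4 (-0.063), Hoxc4 (-0.032), Hoxd1 (-0.066), Hoxd3 (-0.077) and Hoxd4 (-0.028).

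The 10 members of groups 5 to 8, which pattern the brachial and thoracic levels, had a median difference of -0.057, with 8 below 0. The median was -0.0025 without control replicate 3, with 5 below 0 and 5 above. Hoxc5 read 6.10, 6.01 and 6.22 in the Sirt1 inactive cultures, against 6.03, 6.33 and 6.40 in control. Control replicate 1 lay within the Sirt1 inactive range, and the difference was -0.14 (SE 0.11), or -0.068 without control replicate 3. Hoxc6, a gene of the brachial spinal cord, read 5.60, 5.56 and 5.67 in the Sirt1 inactive cultures, against 5.69, 5.68 and 5.73 in control. All its Sirt1 inactive arrays were below control, by gaps as small as those between replicates, with a difference of -0.091 (SE 0.06); the groups lay apart in that direction for 6.71% of all tested probe sets.

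Hoxa5, which acts in lung development, had the lowest mean of the members and the largest value above 0. It read 5.05, 5.22 and 5.01 in the Sirt1 inactive cultures, against 5.24, 4.82 and 5.08 in control. Control replicates 1 and 2 lay on either side of all the Sirt1 inactive arrays. Its difference of 0.048 turned to -0.014 without Sirt1 inactive replicate 2 and to -0.065 without control replicate 2. Hoxd8 read 6.34, 5.89 and 6.04 in the Sirt1 inactive cultures, against 6.24, 6.05 and 6.15 in control, so that the Sirt1 inactive arrays spanned the control range. Its difference of -0.057 was 0.041 without Sirt1 inactive replicate 2. The other members here were Hoxa6 (-0.043), Hoxa7 (-0.078), Hoxb5 (0.014), Hoxb6 (-0.023), Hoxb7 (-0.057) and Hoxc8 (-0.095).

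The 16 members of groups 9 to 13, which pattern the lower trunk, the limbs and the genital tract, had a median difference of -0.067, with 15 below 0. Leaving out control replicate 3 gave a median of -0.029, with 12 below 0. Hoxa13, a gene of the hand and foot plates and of the genital tract, had the smallest unadjusted p of all members. It read 6.12, 6.06 and 6.08 in the Sirt1 inactive cultures, against 6.43, 6.21 and 6.32 in control. Every Sirt1 inactive array lay below every control array. The means were 6.09 ± 0.03 and 6.32 ± 0.11 (SD, n = 3 each), a difference of -0.23 (SE 0.07, interval -0.40 to -0.062), or 0.851 times control. The exact permutation test gave p = 0.1, the smallest that 3 against 3 arrays allow. Under the 13 alternatives its difference lay between -0.29 and -0.18, its unadjusted p between 0.00729 and 0.0478 and its adjusted p between 0.656 and 0.9998 (limma).

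Hoxd12, a limb gene, had the largest SD over the 6 arrays. It read 6.32, 6.12 and 6.17 in the Sirt1 inactive cultures, against 6.50, 6.18 and 6.54 in control. Control replicate 2 sat among the Sirt1 inactive arrays, and the difference was -0.20 (SE 0.11), between -0.31 and -0.083 over the alternative settings. In the fit with the replicate number as a block its unadjusted p was 0.0425, against 0.109 without it, and its adjusted p was 0.656 (limma).

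Hoxa9, a gene of blood stem cells and leukaemia, read 6.23, 6.18 and 6.19 in the Sirt1 inactive cultures, against 6.28, 6.27 and 6.32 in control. Its groups did not overlap, with a difference of -0.088 (SE 0.055). Hoxb9 read 7.35, 7.21 and 7.26 in the Sirt1 inactive cultures, against 7.32, 7.18 and 7.40 in control, and its sign turned with the setting, from -0.025 to 0.027 without control replicate 3. The other members were Hoxa10 (-0.057), Hoxa11 (-0.077), Hoxb13 (-0.10), Hoxc9 (0.042), Hoxc10 (-0.050), Hoxc11 (-0.018), Hoxc12 (-0.088), Hoxc13 (-0.11), Hoxd9 (-0.049), Hoxd10 (-0.047), Hoxd11 (-0.043) and Hoxd13 (-0.098). Hoxb13 is known from prostate, Hoxc13 from hair follicles and Hoxd13 from digits.

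The median difference was -0.077 for the 10 Hoxa genes, -0.057 for the 9 Hoxb genes, -0.088 for the 9 Hoxc genes and -0.057 for the 9 Hoxd genes. Without control replicate 3 these medians were -0.011 for Hoxa, -0.013 for Hoxb, -0.022 for Hoxc and -0.041 for Hoxd, so that their order was not the same. In that setting 6 of 10 Hoxa, 5 of 9 Hoxb, 6 of 9 Hoxc and 9 of 9 Hoxd genes were below 0. Differences between clusters, or between the 3 ranges of paralogue groups, were not tested. Hox genes share a homeobox, and whether a probe set also reads a paralogue was not tested.

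Many members, though not all, shared their highest or their lowest array. Averaged over the 37 members, the arrays read 6.51, 6.46 and 6.50 in the Sirt1 inactive cultures, against 6.53, 6.50 and 6.63 in control. Control replicate 3 was the highest, and control replicate 2 lay inside the Sirt1 inactive range. Control replicate 3 held the highest value of 25 members, and was the highest array for 37.2% of all tested probe sets. Sirt1 inactive replicate 2 held the lowest value of 19 members, and was the lowest array for 22.4% of all tested probe sets.

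The median within-genotype SD of a member was 0.079, against 0.099 for all tested probe sets. Over the 6 arrays the median Pearson correlation between 2 members was 0.44 over 666 pairs, of which 80.9% were above 0. It was 0.41 for the 153 pairs within a cluster, 0.45 for the 513 pairs from different clusters and 0.52 for the 38 pairs of one paralogue group. The pairs share the same 6 arrays and their scaling, so these values describe the arrays as well as the genes.

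Dim probe sets as a whole shared their highest and lowest arrays with the Hox genes. The 11480 tested probe sets below the median brightness averaged 6.22, 6.19 and 6.19 in the Sirt1 inactive cultures, against 6.23, 6.21 and 6.28 in control. The 39 markers of absent tissues averaged 6.55, 6.41 and 6.48 in the Sirt1 inactive cultures, against 6.52, 6.48 and 6.57 in control, and 30 of 39 had differences below 0, with a median of -0.057. Leaving out control replicate 3 gave 24 of 39 below 0 and a median of -0.019. For both sets control replicate 3 was the highest array and Sirt1 inactive replicate 2 the lowest, as for the Hox genes. The brighter probe sets had a median difference of -0.0030, and 51.4% were below 0. The part of this movement of dim probe sets in the Hox values was not tested.

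**Figure D3:**
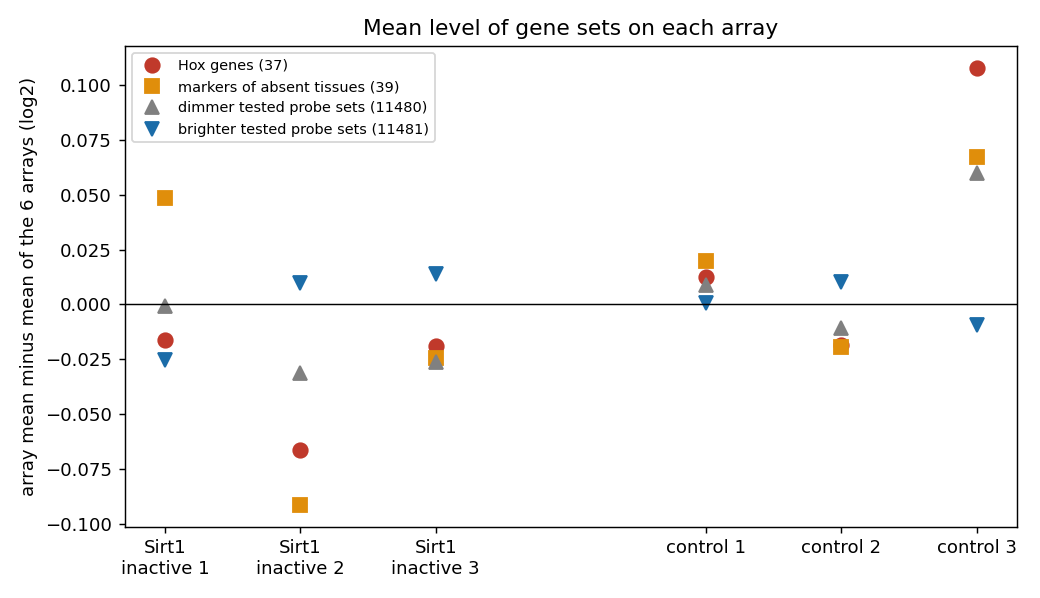
Mean log2 value on each array minus the mean over the 6 arrays (vertical axis) for the Hox genes, the markers of absent tissues, and the dimmer and brighter tested probe sets, on the 3 Sirt1 inactive arrays (left) and the 3 control arrays (right). The Hox genes, the markers of absent tissues and the dimmer probe sets are all highest on control replicate 3 and lowest on Sirt1 inactive replicate 2.

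The promoters of the 3 members with the smallest unadjusted p are shown because Hox promoters are rich in CpG dinucleotides, the sequence context in which Polycomb complexes settle. They are the 250 bases before the start of the gene in RefSeq, build GRCm38.p6, 5′ to 3′ on the strand of the gene, with each CpG in capitals. They come from chr6:52260881-52261130 (minus strand, Hoxa13), chr11:96365508-96365757 (plus strand, Hoxb1) and chr2:74674763-74675012 (plus strand, Hoxd12).
Hoxa13: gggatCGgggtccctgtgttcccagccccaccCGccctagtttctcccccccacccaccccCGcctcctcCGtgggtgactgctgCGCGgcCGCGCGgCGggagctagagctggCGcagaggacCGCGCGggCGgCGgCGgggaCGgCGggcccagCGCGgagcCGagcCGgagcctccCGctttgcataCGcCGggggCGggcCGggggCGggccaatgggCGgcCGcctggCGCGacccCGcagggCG
Hoxb1: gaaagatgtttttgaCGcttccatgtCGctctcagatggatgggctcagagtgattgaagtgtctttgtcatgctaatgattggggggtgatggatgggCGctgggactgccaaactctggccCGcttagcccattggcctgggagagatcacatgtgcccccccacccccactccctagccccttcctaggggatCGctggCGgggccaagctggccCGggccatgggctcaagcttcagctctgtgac
Hoxd12: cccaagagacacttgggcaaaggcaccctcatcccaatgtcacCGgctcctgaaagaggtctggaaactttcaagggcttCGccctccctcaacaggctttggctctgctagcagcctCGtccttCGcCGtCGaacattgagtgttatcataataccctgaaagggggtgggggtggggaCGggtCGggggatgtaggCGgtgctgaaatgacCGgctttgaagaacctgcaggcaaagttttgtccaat

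The Hoxa13 window held 35 CpGs and was 80% G and C, the Hoxd12 window held 10 CpGs and the Hoxb1 window 7. The table gave 23 promoters for 21 of the 37 members, with between 2 and 35 CpGs and a median of 13. All 32851 promoters in the table had a median of 6 CpGs. The half-site AGGTCA, which retinoid receptors and other nuclear receptors bind, was looked for on both strands of these windows. It was present in 6 of 23 member promoters (26.1%), those of Hoxb4, Hoxc4, Hoxd3, Hoxd4, Hoxd8 and Hoxd10, against 14% of all promoters. A match is a description of the letters and not a site of binding.

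Non-coding genes inside the clusters were dim too. Of 17 such genes listed, 10 were measured, 9 of these below the array median on all 6 arrays. All 10 had differences below 0, with a median of -0.071, and 9 of 10 without control replicate 3. None passed the test, and 0 of 10 reached an unadjusted p under 0.05 (limma), against 3.61% of all tested probe sets.

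The clusters also carry the miR-10 and miR-196 families, which are known to repress Hox transcripts. Their mature 5p forms are shown, from RefSeq (GRCm38.p6), because family members in different clusters share a seed, the bases 2 to 8 given in capitals. The miR-196a form is encoded both in the Hoxc cluster (Mir196a-2, the place given) and in the Hoxb cluster (Mir196a-1).
mmu-miR-10a-5p, chr11:96317186-96317208 (plus strand): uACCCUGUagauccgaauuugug
mmu-miR-10b-5p, chr2:74726074-74726096 (plus strand): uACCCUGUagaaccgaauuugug
mmu-miR-196a-5p, chr15:102973365-102973386 (plus strand): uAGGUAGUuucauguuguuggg
mmu-miR-196b-5p, chr6:52230129-52230150 (minus strand): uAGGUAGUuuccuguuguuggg

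The probe sets read the host transcript or precursor and not the mature miRNA. Mir10b, beside Hoxd4, read 3.87, 3.95 and 3.85 in the Sirt1 inactive cultures, against 3.97, 3.99 and 4.03 in control, below the lower quartile of every array. Its groups did not overlap, with a difference of -0.11 (SE 0.06). Mir10a, in the Hoxb cluster, differed by -0.075, Mir196a-2, in the Hoxc cluster, by -0.14, Mir196a-1 by -0.046, Mir196b by -0.10 and Mir615 by -0.12. Among the long transcripts, Hottip differed by -0.036, Hoxaas2 by -0.067, Hoxd3os1 by -0.024 and Haglr by -0.037. These long transcripts, Mir196a-1 and Mir196b were named after their values were seen.

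Genes just outside the clusters were brighter. Of 14 measured flanking genes, 10 lay above the array median on all 6 arrays. Their differences were above 0 for 9 and below 0 for 5, with a median of 0.032. None passed the test or reached an unadjusted p under 0.05, against 3.61% of all tested probe sets. With the replicate number as a block 2 of 14 had an unadjusted p under 0.05, Calcoco1 and Mtx2, against 7.58% of all tested probe sets. Without control replicate 3 the median was 0.057. Calcoco1, beyond the Hoxc cluster, differed by -0.16. Above 0 were Mtx2, a mitochondrial import gene next to the Hoxd cluster (0.17), and Hibadh, beyond the Hoxa cluster (0.17). Snx11, beyond the Hoxb cluster, was also above 0 (0.10).

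The TALE cofactors were bright and differed little. All 8 measured members of the list (of 9) lay above the median on every array. None passed and 0 of 8 had an unadjusted p under 0.05 (limma), against 3.61% of all tested probe sets. The differences ran from -0.15 to 0.059, with a median of -0.043. Pbx4 was at -0.15 (SE 0.07), Meis3 at -0.12, Pknox2 at -0.088 and Pknox1 at -0.070. Without control replicate 3 the median was 0.024, and Meis3 (0.025) and Pknox1 (0.024) lay above 0.

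Of 13 ParaHox and other homeobox relatives, 11 were below 0, with a median of -0.080, and none passed. Leaving out control replicate 3 gave 9 below 0 and a median of -0.045. Gsx1, a factor of ventral forebrain progenitors, read 7.85, 7.68 and 7.90 in the Sirt1 inactive cultures, against 8.12, 7.96 and 8.28 in control. The groups did not overlap, with a difference of -0.31 (SE 0.10). Gsx1 was the 1 member of 13 with an unadjusted p under 0.05, against 3.61% of all tested probe sets. There were 2 such members with the replicate number as a block, Gsx1 and Cdx1, against 7.58% of all tested probe sets. Without control replicate 3 there were 2, Gsx1 and Gbx2, against 2.81% of all tested probe sets. Cdx1, an activator of Hox genes in the embryo, differed by -0.18, Gbx2, of the anterior hindbrain, by -0.16, and Pdx1, of the pancreas, by -0.10.

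Genes of the Polycomb and Trithorax groups, which hold Hox genes silent or active, were measured at 33 of 34 entries, and 32 of these lay above the median on every array. None passed, 15 were above 0 and 18 below, and the median difference was -0.026 (0.0084 without control replicate 3). Cbx7, a chromodomain subunit of Polycomb repressive complex 1, was the 1 member of 33 with an unadjusted p under 0.05. The share of all tested probe sets at that p was 3.61%. Cbx7 read 8.02, 8.02 and 8.01 in the Sirt1 inactive cultures, against 8.26, 8.12 and 8.30 in control, with no overlap and a difference of -0.21 (SE 0.07). With the replicate number as a block there were 2 such members, Cbx7 and Phc1, against 7.58% of all tested probe sets. Phc1 (-0.18) and Phc2 (-0.088) belong to the same complex, and Mllt3 (-0.17) is a partner of elongation factors. Of the core of Polycomb repressive complex 2, named after the values were seen, Ezh2 differed by 0.051, Eed by 0.092 and Suz12 by 0.041.

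Inputs to Hox transcription, chiefly the retinoic acid pathway, were measured at 17 of 19 entries. None passed, 12 were below 0, and the median difference was -0.066. Aldh1a1, an enzyme that makes retinoic acid, read 8.39, 8.99 and 9.12 in the Sirt1 inactive cultures, against 9.41, 9.38 and 9.99 in control. The groups did not overlap, and the difference was -0.76 (SE 0.23, interval -1.30 to -0.22), or 0.590 times control. Aldh1a2, which makes retinoic acid in the embryo, read 6.95, 7.00 and 6.81 in the Sirt1 inactive cultures, against 6.53, 6.82 and 6.08 in control. It overlapped through control replicate 2, with a difference of 0.45 (SE 0.18), or 0.25 without control replicate 3. These were the 2 members of 17 with an unadjusted p under 0.05, against 3.61% of all tested probe sets. Neither passed (limma, adjusted p = 0.959 for both). With the replicate number as a block there were 3, Aldh1a1, Aldh1a2 and Zic1, against 7.58% of all tested probe sets. Without control replicate 3 there was 1, Aldh1a1, against 2.81% of all tested probe sets. Rxrg, a retinoid receptor, differed by -0.16, and Zic1, a patterning factor, by 0.37.

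**Figure D4:**
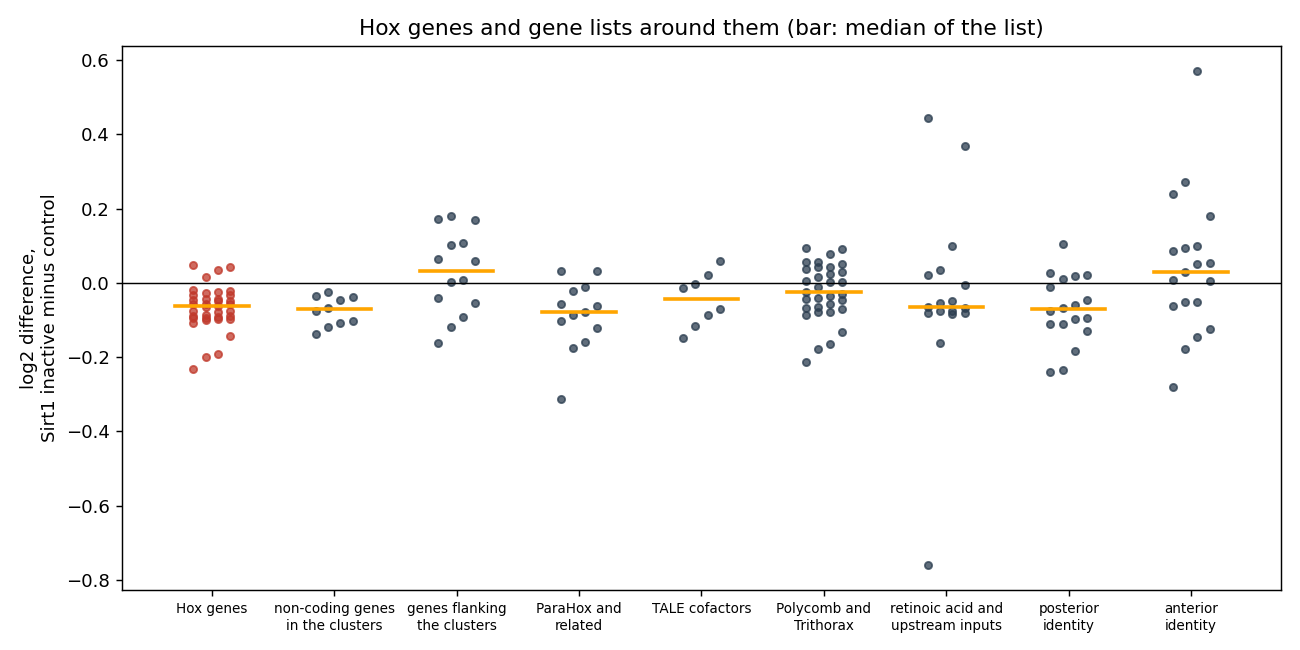
Log2 difference, Sirt1 inactive minus control (vertical axis), of each measured gene (point) in the Hox genes and in 8 lists around them (horizontal axis); the orange bar is the median of the list. The Hox genes span -0.23 to 0.048, and the widest range, -0.76 to 0.45, is that of the retinoic acid list.

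Factors that mark the front and back of the neural tube frame these values. Anterior identity factors were measured at 19 of 21 entries, 12 of them above the median on every array; none passed, 12 were above 0, and the median difference was 0.028 (-0.0063 without control replicate 3). Emx2, a factor of the dorsal forebrain and its adult stem cells, read 8.74, 8.71 and 8.60 in the Sirt1 inactive cultures, against 8.40, 8.54 and 8.28 in control. Its groups did not overlap, with a difference of 0.27 (SE 0.08). Emx2 was the 1 member of 19 with an unadjusted p under 0.05, against 3.61% of all tested probe sets. With the replicate number as a block there were 5, against 7.58% of all tested probe sets, and 0 passed. Of the 5, Emx2, Nr2e1 and Pax6 were higher and Nr2f1 and Nr2f2 lower. Pax6 was named after its values were seen. Nr2e1, a stem cell factor, differed by 0.18, and the related receptors Nr2f1 and Nr2f2 by -0.18 and -0.28.

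Posterior identity factors other than Hox genes were measured at 18 of 19 entries, 5 of them above the median on every array. None passed, 13 were below 0, and the median difference was -0.072 (-0.036 without control replicate 3). En2, of the midbrain and cerebellum, read 7.32, 7.23 and 7.39 in the Sirt1 inactive cultures, against 7.69, 7.53 and 7.44 in control, a difference of -0.24 with no overlap. Ptf1a, of the cerebellum and dorsal spinal cord, read 5.67, 5.57 and 5.70 in the Sirt1 inactive cultures, against 5.92, 5.71 and 6.02 in control, a difference of -0.23. Its groups lay apart by less than the spread within control. En2 and Ptf1a were the 2 members of 18 with an unadjusted p under 0.05, against 3.61% of all tested probe sets. Without control replicate 3 En2 was the only one, against 2.81% of all tested probe sets. Phox2a differed by -0.13 and Atoh1 by -0.18.

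Markers of cell types that the cultures can hold were read beside the Hox genes, since some Hox genes are active in blood cells. The 15 measured microglia and macrophage markers averaged 6.64 to 6.70 over the Sirt1 inactive arrays and 6.67 to 6.82 over the control arrays, with 13 of 15 differences below 0 and a median of -0.073. Of these, 12 lay below the array median on all 6 arrays. Endothelial markers (12 measured) averaged 6.85 to 6.90 over the Sirt1 inactive arrays and 6.85 to 6.93 over control, with a median difference of -0.048. Neuroblast and neuron markers (16 measured) averaged 8.42 to 8.56 over the Sirt1 inactive arrays and 8.52 to 8.79 over control, with a median difference of -0.17 and control replicate 3 highest. Without that array the median was -0.082. Astrocyte markers (13 measured) averaged 10.47 to 10.56 over the Sirt1 inactive arrays and 9.95 to 10.53 over control, with control replicate 3 lowest and a median difference of 0.12. Without that array the median was -0.0021, with 7 of 13 below 0. Mural and fibroblast markers (14 measured) averaged 8.08 to 8.17 over the Sirt1 inactive arrays and 7.68 to 8.23 over control, again lowest in control replicate 3. Their median difference was 0.045, and -0.039 without that array. Oligodendrocyte lineage markers (13 measured) averaged 9.41 to 9.62 over the Sirt1 inactive arrays and 9.32 to 9.48 over control. Their median difference was -0.084 (-0.051 without control replicate 3) and the difference of their array means 0.088, so that median and mean differ in sign. In this list 9 were below 0. Over all tested probe sets 3.61% had an unadjusted p under 0.05 and 9.33% had groups apart. In the list 4 had both, all higher in the Sirt1 inactive cultures. These were Pdgfra (0.79) and Gpr17 (0.75), genes of oligodendrocyte progenitors, C1ql1 (0.44) and Sox10 (0.28), a factor of the lineage, named after their values were seen. The list again had 4 at an unadjusted p under 0.05 without control replicate 3, against 2.81% of all tested probe sets. Of these 2 were higher, Gpr17 and C1ql1, and 2 were lower. Pdgfra and Sox10 were not among them. The other lists here, with all 6 arrays, held such members too. The count was 3 for neuroblasts and neurons, all lower, and 2 each for astrocytes and for mural cells and fibroblasts. It was 1 each for microglia and endothelium, both lower. Groups lay apart for 5 microglia markers, all lower, 3 astrocyte, 3 mural, 2 neuronal and 2 endothelial markers. Without control replicate 3 the count at that p was 0 for neuroblasts and neurons and 0 for astrocytes. No member of these lists passed the test. Their part in the Hox values was not tested. In such bulk samples fewer cells of a type and less RNA per cell cannot be told apart.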

How the data were processed

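The authors deposited log2 values, which the series' design text and the submitters' processing notes say were computed by RMA; the sources used here do not give its version or a genome build. That the deposited scale is log2 was judged from the range of the values. The table has 34760 probe sets, of which GEO's platform annotation pairs 21640 with 1 gene, 1321 with several and 11799 with none in the table used; it held 0 columns of other samples. The 22961 with at least 1 gene entered one linear model each (limma 3.58.1, R 4.3.3; 6 arrays, genotype as the term, empirical Bayes, two-sided p, Benjamini-Hochberg adjusted over all tested probe sets, threshold 0.05). Adjusted and unadjusted p-values, SE and 95% intervals in the text are limma's unless named exact. For lists, each gene is read through its single-gene probe set of highest mean. Where samples are called replicates, p-values measure the spread between these samples, which may in part be technical.

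The members and the 16 gene lists (294 entries, 268 measured) were chosen with earlier results of these data known. Array values are printed for members with an unadjusted p under 0.05, with groups that do not overlap, with the 4 highest means or the 4 largest SDs, filled up to 12 by p where fewer; list genes named are up to 4 per list by p, outside the cell type lists. The fit was tested on simulated data in which the arrays varied independently, so that test does not cover deviations that samples share. Same-numbered samples deviated together from their group means (correlations of 0.47, 0.36 and 0.27 over probe sets for the 3 pairs), so a fit with the replicate number as a block was set beside the main one. Promoter and miRNA sequences are RefSeq's. The 1627 promoter windows that overlap one of the other strand were identical to it once turned.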

Additional observations from a re-analysis of the deposited data

How the results depend on the processing

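Under the 14 alternatives run no Hox gene passed over all probe sets, and the lowest adjusted p of a member was 0.656, with the replicate block (limma). The count of members at an unadjusted p under 0.05 was 2 with the replicate block and 0 of the 3 members left when probe sets below the median brightness were dropped. It ranged from 1 to 3 when single replicates were left out. The count with groups that do not overlap was 0 among those 3 members and ranged from 4 to 13 when single replicates were left out, where fewer arrays overlap less often. The median difference stayed below 0 under all 14, between -0.095 and -0.021. With the replicate block no list gene passed. Over all tested probe sets the share at an unadjusted p under 0.05 was 7.58% with the block, in place of 3.61%. Counts of list genes at that p also went up for several lists, among them the flanking genes (2 in place of 0) and the anterior factors (5 in place of 1). Signs turned for Hoxb9 (0.042 with array weights), and, when single replicates were left out, for Hoxb9 (-0.085 to 0.027, above 0 without Sirt1 inactive replicate 2, at 0.0072, or control replicate 3), Hoxa5 (-0.065 to 0.14, below 0 without Sirt1 inactive replicate 2, at -0.014, or control replicate 2), Hoxd8 (-0.18 to 0.041, above 0 without Sirt1 inactive replicate 2), and Meis3 (-0.19 to 0.025) and Pknox1 (-0.16 to 0.024), above 0 without control replicate 3. The cause was not tested. Of the Hox genes given by their difference alone, 6 also turned sign without control replicate 3, namely Hoxa2 (0.014), Hoxa7 (0.0033), Hoxa10 (0.034), Hoxb6 (0.047), Hoxc8 (0.0083) and Hoxc11 (0.0071). These were not followed through the other settings. The low brightness of the Hox probe sets and 3 arrays per genotype limit what can be seen.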
